A study of Mus musculus with 12 samples.

Results

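The genes described here make the lysosome of mouse macrophages: 50 genes for its hydrolases, its membrane proteins, the proton pump that acidifies it and the transcription factors that control many of these genes. They were chosen by name, as the rows of the deposited count table with these symbols. All 50 were found, each once, among the 54446 genes of the table, and all 50 passed the filter on low counts that left 13773 genes for testing. RNA was sequenced from bone marrow-derived macrophages, which are cells grown from mouse marrow of femurs and tibias with macrophage colony-stimulating factor. All mice carried Nlrc3 alleles flanked by loxP sites (NLRC3fl/fl). Wild type (WT) mice had no Cre (LysM-Cre-), while knockout mice (KO, NLRC3ΔMac) were LysM-Cre+, so that Cre from the LysM promoter deletes Nlrc3 in the myeloid lineage, neutrophils included. Cells received lipopolysaccharide (LPS, a bacterial ligand of Toll-like receptor 4) for 12 h or stayed in medium, which gave WT medium, WT LPS, KO medium and KO LPS groups of 3 libraries each. The labels used here give no strain or age, and do not say whether replicates came from separate mice. A p-value here thus speaks of the spread among libraries within groups, estimated over all 12 libraries, and not necessarily among mice.

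The lysosome degrades what a macrophage takes up by phagocytosis and endocytosis and what it delivers by autophagy. Its hydrolases work at acid pH, which the vacuolar proton pump maintains: a cytosolic V1 sector hydrolyses ATP and drives protons through a membrane V0 sector. Transcription factors of the MiT/TFE family (Tfeb, Tfe3, Mitf and Tfec) bind E-box sequences in the promoters of many lysosomal genes, the so-called CLEAR elements, and are held in the cytosol by mTORC1 when nutrients are plentiful. In macrophages the pathway also processes antigens, activates granule proteases through cathepsin C and releases cholesterol from ingested lipoproteins through lysosomal acid lipase.

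Library totals ran from 13082947 to 20960505 counts, and the lowest count of any of the 50 genes in any library was 84. Levels are given in CPM, that is counts scaled to a library total of 1000000 with no further factor, in the order of libraries 1, 2 and 3 of each group. All 8 macrophage markers examined had counts in every group, and Atp6v0d2, a pump subunit of macrophages and osteoclasts, was detected in every library. Nlrc3, the targeted gene, stood at 9.89, 13.6 and 10.4 CPM in WT medium, 0.796, 4.39 and 1.4 in WT LPS, 0.996, 0.85 and 0.876 in the libraries labelled KO medium and 15.6, 8.29 and 6.04 in those labelled KO LPS. The LPS-responsive gene Nos2 stood at 5.94, 3.9 and 8.35 CPM in WT medium, 2153, 831 and 2704 in WT LPS, 2717, 1148 and 2347 in the libraries labelled KO medium and 5.43, 1.42 and 0.689 in those labelled KO LPS. Against the labels, Nlrc3 in labelled KO LPS was as high as in WT medium while Nos2 was almost absent there, and Nos2 in labelled KO medium, which had no LPS, was as high as in WT LPS. Groups are therefore called by their labels throughout ("labelled KO"), and a direction between a labelled KO group and another is that of libraries so labelled. Summed markers of B cells stood apart in labelled KO LPS 2 and 3 (86.1 and 89.4 CPM), the other 10 libraries having at most 13.2 CPM. Summed neutrophil markers lay at 829 to 1228 CPM in WT medium, 956 to 4376 in WT LPS, 1091 to 3106 in labelled KO medium and 1103 to 6898 in labelled KO LPS. Xist exceeded 50 CPM in 2 WT medium, 1 WT LPS, 0 labelled KO medium and 2 labelled KO LPS libraries, and a fit with a term for it is one of the alternatives. Summed macrophage markers, like the share of the 50 genes given below, were lower in the libraries with high Nos2 than in the others. They lay at 32180 to 35760 CPM in WT medium, 12620 to 19340 in WT LPS, 10060 to 12950 in labelled KO medium and 21230 to 34430 in labelled KO LPS. The 8 markers include Lyz2, which is also in the list of other lysosomal hydrolases used below. Adgre1, another of the 8, did not follow this order, as its values further below show. With TMM 1 of these 8 was called higher and 0 lower in WT LPS against WT medium, at a median log2 fold of 0.26. Summed dendritic cell markers stood at 25.5 and 27.6 CPM in labelled KO LPS 2 and 3 and at most at 7.12 CPM elsewhere, and megakaryocyte markers at 524 to 785 CPM in labelled KO LPS and 143 to 525 CPM elsewhere. Of 8 stromal markers 4 were called lower and 0 higher in labelled KO LPS than in WT LPS, with summed levels of 30.9 to 80.9 against 39.6 to 280.2 CPM. The part of these markers in the results was not tested.

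Folds are log2 differences from edgeR with trimmed-mean (TMM) factors, given ± SE, and a gene counted as called where the p adjusted over all 13773 genes (Benjamini-Hochberg) was under 0.05. Where leaving out a library ended a call, the edgeR adjusted p of that fit follows the library's name in parentheses. The TMM factors differed by group, from 1.10 to 1.46 in WT medium, 0.765 to 1.02 in WT LPS, 0.703 to 0.791 in labelled KO medium and 1.21 to 1.24 in labelled KO LPS. Scaling by library totals alone moved the median log2 fold of all genes between WT LPS and WT medium from −0.0566 to −0.637. Folds therefore do not follow from the CPM values alone, both scalings are given for counts of genes, and shares within a library, which no scaling touches, are given at the end. The 50 genes together took 6.69% to 7.75% of all counts in WT medium, 3.90% to 5.11% in WT LPS, 4.39% to 5.41% in labelled KO medium and 7.49% to 8.57% in labelled KO LPS, so the libraries with high Nos2 all had less than those without it. Scaled by library totals alone, the median log2 fold of the 50 between WT LPS and WT medium was −0.72, near the −0.637 of all genes. Fewer cells with lysosomal RNA, less of this RNA per cell and a larger share of other RNA cannot be told apart in such bulk samples.

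Promoter sequences are shown first, for Lamp1, Mcoln1 and Ctsd, which have the E-box CACGTG, and for Ctsc, Galc and Lipa, which lack CACGTG. The last 3 are from the 4 genes whose difference between WT LPS and WT medium was called in every fit that was run. The window of the other, Atp6v0a1, is not shown. The windows run from 250 bases before to 50 bases after a transcription start of RefSeq (GRCm38.p6), and 42 of the 50 genes had one. Capitals mark the E-box CACGTG, the core of the CLEAR element.
Lamp1 (chr8:13158911-13159210, plus strand): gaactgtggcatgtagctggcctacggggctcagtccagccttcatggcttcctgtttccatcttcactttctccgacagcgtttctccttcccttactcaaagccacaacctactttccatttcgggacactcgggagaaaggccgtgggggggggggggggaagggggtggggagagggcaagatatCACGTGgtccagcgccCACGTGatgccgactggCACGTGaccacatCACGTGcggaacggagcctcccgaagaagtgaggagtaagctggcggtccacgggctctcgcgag
Mcoln1 (chr8:3500269-3500568, plus strand): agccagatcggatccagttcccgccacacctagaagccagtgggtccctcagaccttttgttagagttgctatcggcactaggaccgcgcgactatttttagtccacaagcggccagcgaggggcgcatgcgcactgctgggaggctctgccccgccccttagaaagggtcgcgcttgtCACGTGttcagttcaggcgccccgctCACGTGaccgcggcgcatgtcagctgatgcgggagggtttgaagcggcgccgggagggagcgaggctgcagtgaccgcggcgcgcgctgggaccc
Ctsd (chr7:142387778-142388077, minus strand): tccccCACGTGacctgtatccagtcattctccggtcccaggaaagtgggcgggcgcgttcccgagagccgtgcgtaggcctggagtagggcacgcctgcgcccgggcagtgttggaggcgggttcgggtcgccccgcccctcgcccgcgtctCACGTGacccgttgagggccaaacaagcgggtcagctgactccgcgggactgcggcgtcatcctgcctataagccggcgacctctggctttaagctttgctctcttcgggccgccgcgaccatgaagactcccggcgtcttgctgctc
Ctsc (chr7:88277835-88278134, plus strand): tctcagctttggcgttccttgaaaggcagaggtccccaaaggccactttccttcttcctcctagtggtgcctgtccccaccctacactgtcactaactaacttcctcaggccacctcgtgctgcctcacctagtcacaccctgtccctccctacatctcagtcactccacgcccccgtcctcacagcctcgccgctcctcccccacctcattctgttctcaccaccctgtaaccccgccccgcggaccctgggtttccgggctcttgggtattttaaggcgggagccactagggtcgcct
Galc (chr12:98259410-98259709, minus strand): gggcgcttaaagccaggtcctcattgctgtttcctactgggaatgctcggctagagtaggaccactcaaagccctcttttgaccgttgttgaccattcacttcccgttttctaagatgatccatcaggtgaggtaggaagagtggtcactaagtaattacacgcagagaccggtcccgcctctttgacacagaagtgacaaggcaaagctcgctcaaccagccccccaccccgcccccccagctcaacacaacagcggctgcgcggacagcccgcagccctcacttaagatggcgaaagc
Lipa (chr19:34527425-34527724, minus strand): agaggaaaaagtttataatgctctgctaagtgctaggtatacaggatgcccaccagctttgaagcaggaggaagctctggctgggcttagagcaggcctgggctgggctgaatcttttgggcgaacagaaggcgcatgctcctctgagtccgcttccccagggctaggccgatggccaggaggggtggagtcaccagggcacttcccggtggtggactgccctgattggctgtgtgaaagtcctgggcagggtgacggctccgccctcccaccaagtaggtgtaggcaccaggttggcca
Lamp1 had 4 E-boxes, beginning 61, 45, 28 and 15 bases before the start, Mcoln1 had 2 at 71 and 45 bases, and Ctsd had 2 at 245 and 98 bases. CACGTG, which reads the same on both strands, occurred in the windows of 13 of the 42 genes (31%), against 8.09% of all 27025 genes with a window and 11.7% of the 9971 tested ones. The longer CLEAR core TCACGTGAC, searched on both strands and always holding the E-box, occurred in 5 of the 42 (11.9%), against 0.895% of all genes and 1.86% of tested ones. The M-box TCATGTG, which does not hold CACGTG, occurred in 8 of the 42 (19%), against 4.31% and 2.89%. The other 10 genes with CACGTG were Ctsa, Ctsl, Lgmn, Gla, Gaa, Glb1, Naglu, Atp6v0b, Atp6v0d1 and Atp6v1a. None of the 13 was among the 9 genes called between WT LPS and WT medium with TMM, all 9 of which had a window, while 13 of the 33 genes not called had it. This split depends on the scaling. With library totals alone, Ctsa and Ctsd, which have CACGTG, were among the genes called lower in WT LPS. Gla, Gaa, Glb1 and Naglu, which also have it, belong to the 11 glycosidases, of which 9 were then called lower. These matches describe letters in a window and show no binding, and no test was made of them.

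With LPS in WT macrophages a small group of lysosomal genes fell and another rose, while 41 of the 50 genes were not called. Galactosylceramidase (Galc), the pump subunit Atp6v0a1, lysosomal acid lipase (Lipa), β-mannosidase (Manba) and Tfeb fell, and cathepsin C (Ctsc), the cholesterol carrier Npc2, progranulin (Grn) and Lamp2 rose. Thus 4 of the 50 genes were called higher, beside 11.9% of all tested genes, and 5 lower, beside 6.46% of all tested genes. The 9 calls fell to 4 (1 higher and 3 lower) without WT medium 1 or without WT LPS 3, and to 5 (1 and 4) without WT medium 3. In these fits calls among all tested genes fell too, from 2526 to 1509, 1402 and 1564. Without WT LPS 1, 7 of the 50 were called (1 higher and 6 lower), beside 1924 of all tested genes. For the 50, leaving out the filter on low counts gave 1 higher and 7 lower, a replicate block 2 and 6, and DESeq2 4 and 9. Among all genes these fits called 2647, 2139 and 3541. The median log2 fold of the 50 was −0.12, and that of all tested genes −0.0566. Scaled by library totals alone, 1 gene was called higher and 23 lower, with a median of −0.72 for the 50 and −0.637 for all genes, and 23.1% of all genes were then called lower. Called under both scalings were Ctsc, which rose, and Galc, Atp6v0a1, Lipa, Manba and Tfeb, which fell, whereas Npc2, Grn and Lamp2 were called with TMM only. On TMM-scaled levels, all WT LPS libraries lay above all WT medium libraries for 7 of the 50 genes (18.5% of all tested genes) and below them for 10 (15.4%).

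**Figure D1:**
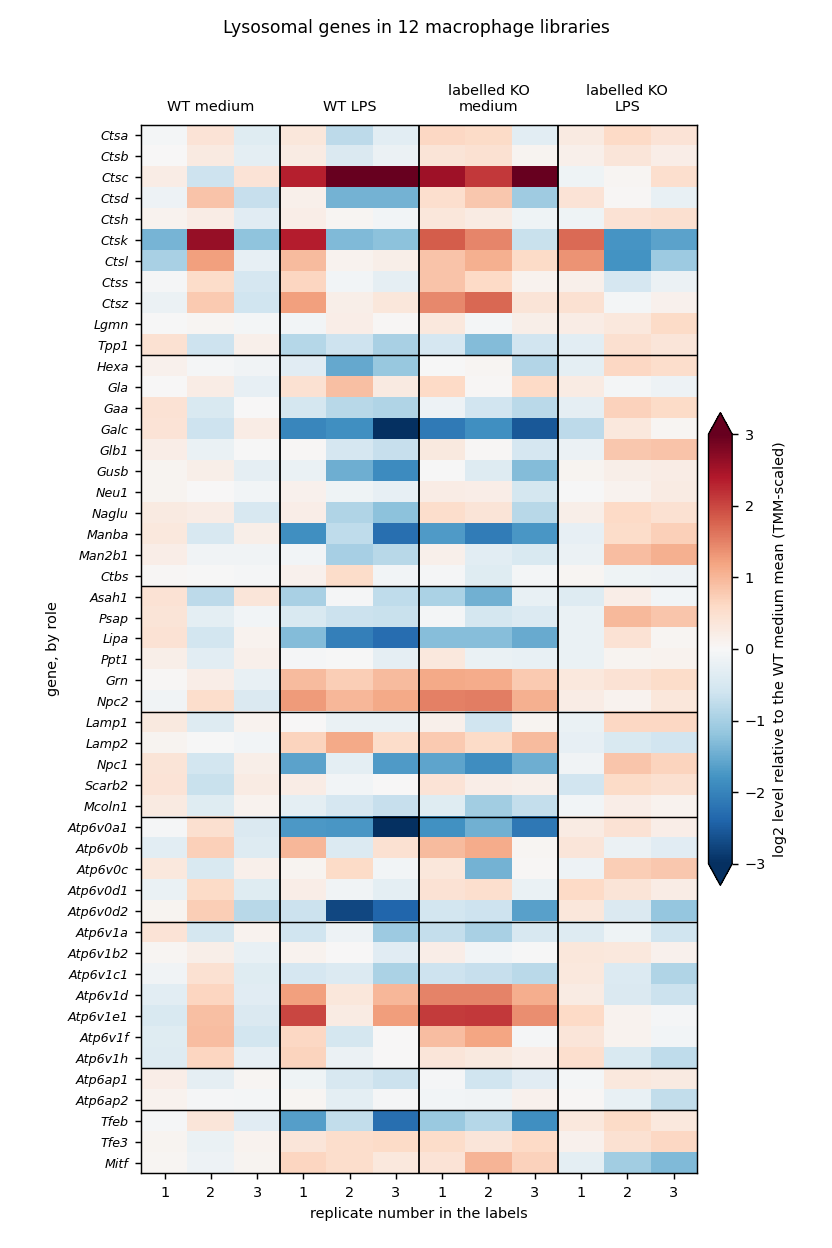
Level of each of the 50 genes (rows, by role) in each of the 12 libraries (columns), as the log2 of the TMM-scaled level relative to the mean of the WT medium libraries; black lines separate groups and roles, and the color scale ends at 3 in both directions. WT LPS and labelled KO medium share the red row of Ctsc and the blue rows of Galc, Manba, Lipa, Atp6v0a1 and Tfeb, which are pale in labelled KO LPS.

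Among the 10 cathepsins and related peptidases and tripeptidyl peptidase 1 (Tpp1), Ctsc was the 1 gene called between WT LPS and WT medium. Ctsc, on chromosome 7 at 88278085 to 88310888 of mm10, encodes cathepsin C, a dipeptidyl peptidase that activates serine proteases of granules. Ctsc stood at 524, 235 and 636 CPM in WT medium, 1275, 2954 and 2432 in WT LPS, 1352, 1005 and 2442 in the libraries labelled KO medium and 365, 429 and 576 in those labelled KO LPS. Every WT LPS and labelled KO medium library lay above every library of the other groups. The fold between WT LPS and WT medium was 2.87 ± 0.41 (edgeR adjusted p = 0.000748), and it remained called in every alternative fit and without any single library. The fold of labelled KO LPS over WT LPS was −2.76 ± 0.41 (edgeR adjusted p = 0.000887), also called in all of them. Tpp1, which removes tripeptides and is deficient in a neuronal ceroid lipofuscinosis, stood at 414, 159 and 359 CPM in WT medium, 94, 146 and 92.6 in WT LPS, 109.9, 63.3 and 117 in the libraries labelled KO medium and 213, 385 and 349 in those labelled KO LPS. In CPM the WT LPS libraries all lay below those of WT medium, and the fold was −0.87 ± 0.34 (edgeR adjusted p = 0.0947). Against WT LPS, labelled KO LPS had a fold of 1.02 ± 0.34 (edgeR adjusted p = 0.0464). This call was lost when any of these libraries was left out: WT medium 3 (0.0635), WT LPS 1 (0.111), WT LPS 2 (0.0575), WT LPS 3 (0.147), labelled KO medium 1 (0.0602), labelled KO medium 3 (0.0535), labelled KO LPS 2 (0.157) or labelled KO LPS 3 (0.129). With a replicate block it was lost too (edgeR adjusted p = 0.0724). Ctsa, the protective protein of β-galactosidase and neuraminidase, stood at 1142, 1293 and 999 CPM in WT medium, 853, 520.4 and 575 in WT LPS, 954, 913 and 562 in the libraries labelled KO medium and 1281, 1637 and 1428 in those labelled KO LPS. Its fold was −0.21 ± 0.36 (edgeR adjusted p = 0.733) with LPS in WT and 0.60 ± 0.36 (edgeR adjusted p = 0.242) between labelled KO LPS and WT LPS. Ctsa shares exon sequence with Pltp on the opposite strand, which had a mean level of 63.8% of that of Ctsa, and since the strand setting of the counting is not given, its values are uncertain. Ctsz, a carboxypeptidase of the cathepsin family, stood at 1805, 2890 and 1456 CPM in WT medium, 2705, 1752 and 1566 in WT LPS, 2923, 3519 and 1579 in the libraries labelled KO medium and 2499, 1817 and 2055 in those labelled KO LPS, and its groups overlapped. Its fold was 0.54 ± 0.45 (edgeR adjusted p = 0.455) with LPS in WT and −0.46 ± 0.45 (edgeR adjusted p = 0.489) between labelled KO LPS and WT LPS.

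The abundant cathepsins of macrophages were not called with LPS in WT. Ctsb, an endo- and carboxypeptidase, had a log2 fold of −0.11 ± 0.30 (edgeR adjusted p = 0.838), and Ctss, which trims the invariant chain of MHC class II, one of 0.09 ± 0.38 (edgeR adjusted p = 0.892). For Ctsd, the main aspartic protease of lysosomes, the fold was −0.84 ± 0.58 (edgeR adjusted p = 0.353). Scaled by library totals alone, Ctsa, Ctsb, Ctsd and Tpp1 were called lower in WT LPS, with Ctsb at −0.71 (edgeR adjusted p = 0.0317) and Ctsd at −1.42 (edgeR adjusted p = 0.0483). Legumain (Lgmn), the asparaginyl endopeptidase, and Ctsh, an aminopeptidase, had folds of 0.06 ± 0.24 (edgeR adjusted p = 0.897) and 0.05 ± 0.27 (edgeR adjusted p = 0.925). Per length of gene, in the authors' FPKM, Ctss was the highest of the 50 genes in WT medium with a mean of 5802, followed by Psap at 5425 and Ctsd at 3018. Ctss kept the first place in WT LPS (4171) and labelled KO medium (4662) and was second to Psap in labelled KO LPS (4838 against 7628).

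Ctsk and Ctsl differed widely between libraries of 1 group. Ctsk, the collagen-degrading protease of osteoclasts, stood at 35.7, 471 and 43.4 CPM in WT medium, 276, 28.1 and 24.1 in WT LPS, 174, 136 and 34.5 in the libraries labelled KO medium and 275, 24.9 and 27.8 in those labelled KO LPS. It was above 130 CPM in 5 libraries, namely WT medium 2, WT LPS 1 and those labelled KO medium 1 and 2 and KO LPS 1, and below 44 CPM in the other 7. The macrophage marker Adgre1 (F4/80) stood at 1543, 389 and 1634 CPM in WT medium, 411, 1771 and 623 in WT LPS, 356, 359 and 707 in the libraries labelled KO medium and 558, 1562 and 1808 in those labelled KO LPS. It was below 560 CPM in the same 5 libraries and above 620 CPM in the others, and the part of the cells behind this in other results was not tested. Ctsl, a cysteine endopeptidase, ranged from 971.5 CPM in labelled KO LPS 2 to 8347 CPM in labelled KO LPS 1, and its fold with LPS in WT was 0.16 ± 0.74 (edgeR adjusted p = 0.903).

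Of the 11 glycosidases, which cut sugars from glycoproteins, glycolipids and glycogen, Galc and Manba fell with LPS in WT. None of the 11 was called higher, 9 of 11 had a negative fold, and their median was −0.59. Without TMM, by library totals only, 9 were called lower (23.1% of all tested genes) and 0 higher. In labelled KO LPS against WT LPS 5 were called higher and 0 lower (10.4% and 13.7% of all tested genes), with a median of 1.14. Galc, on chromosome 12 at 98202294 to 98259459, removes galactose from galactosylceramide. Galc stood at 215, 86.1 and 204 CPM in WT medium, 23.4, 33.5 and 9.73 in WT LPS, 19.2, 23.4 and 16 in the libraries labelled KO medium and 83.6, 186 and 155 in those labelled KO LPS. All libraries of WT LPS and labelled KO medium lay below all others. The log2 fold was −2.32 ± 0.44 (edgeR adjusted p = 0.00407) between WT LPS and WT medium and 2.19 ± 0.44 (edgeR adjusted p = 0.00456) between labelled KO LPS and WT LPS, and both were called in every alternative fit and without any single library. Manba, on chromosome 3 at 135485611 to 135571404, is the exoglycosidase that removes the β-linked mannose at the core of N-glycans. Manba stood at 64.1, 29.9 and 62.7 CPM in WT medium, 7.83, 22.7 and 6.14 in WT LPS, 8.02, 5.95 and 8.69 in the libraries labelled KO medium and 38.7, 69.4 and 77.1 in those labelled KO LPS. The highest value of WT LPS came from library 2, and the groups still did not overlap. The fold with LPS in WT was −1.55 ± 0.41 (edgeR adjusted p = 0.0219), and it lost its call without WT medium 1 (0.077), WT medium 3 (0.0649), WT LPS 1 (0.0762) or WT LPS 3 (0.087). The fold of labelled KO LPS over WT LPS was 1.91 ± 0.42 (edgeR adjusted p = 0.007), called in every fit.

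Gla and Ctbs were the 2 glycosidases with a positive fold in WT and a negative one between labelled KO LPS and WT LPS, none of them called. Gla, the α-galactosidase deficient in Fabry disease, is X-linked and stood at 234, 220.1 and 212 CPM in WT medium, 179, 326 and 170 in WT LPS, 184, 123 and 206 in the libraries labelled KO medium and 243, 204 and 191 in those labelled KO LPS. Its fold was 0.56 ± 0.27 (edgeR adjusted p = 0.172) with LPS in WT and −0.55 ± 0.27 (edgeR adjusted p = 0.154) between labelled KO LPS and WT LPS. Ctbs, which cleaves chitobiose, was the lowest of the 50 per length in WT medium, at 3.12 FPKM, and stood at 20.2, 15.8 and 20.7 CPM in WT medium, 12.1, 21.9 and 11.1 in WT LPS, 9.9, 7.79 and 10.9 in the libraries labelled KO medium and 18.2, 16.4 and 15.9 in those labelled KO LPS. Its fold was 0.23 ± 0.24 (edgeR adjusted p = 0.553) with LPS in WT and −0.30 ± 0.24 (edgeR adjusted p = 0.383) between labelled KO LPS and WT LPS. Of the others, Hexa, a subunit of β-hexosaminidase, had a fold of 1.26 ± 0.38 (edgeR adjusted p = 0.0324) between these groups, and the call was lost without WT LPS 2 (0.0843), WT LPS 3 (0.11), labelled KO LPS 2 (0.115) or labelled KO LPS 3 (0.0988). Gaa, the acid α-glucosidase that degrades glycogen, had a fold of 1.14 ± 0.32 (edgeR adjusted p = 0.0243), lost without WT LPS 2 (0.0543), WT LPS 3 (0.0891), labelled KO LPS 2 (0.101) or labelled KO LPS 3 (0.0814). Man2b1, a lysosomal α-mannosidase, had a fold of 1.29 ± 0.37 (edgeR adjusted p = 0.025), lost without WT LPS 2 (0.0667), WT LPS 3 (0.0891), labelled KO LPS 2 (0.0885) or labelled KO LPS 3 (0.0985). Gusb, Glb1, Naglu and Neu1, which remove glucuronic acid, galactose, N-acetylglucosamine and sialic acid, were not called there, with folds of 1.17 ± 0.43, 0.93 ± 0.33, 0.94 ± 0.43 and 0.20 ± 0.24. Scaled by library totals alone, 9 of the 11 glycosidases were called higher in labelled KO LPS than in WT LPS (25.3% of all tested genes), all but Gla and Ctbs.

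The genes for lipid breakdown split into rises and falls. Lipa, on chromosome 19 at 34492318 to 34527474, is the acid lipase that frees cholesterol and fatty acids from lipoprotein lipids. Lipa stood at 2228, 908 and 1906 CPM in WT medium, 375, 298 and 202 in WT LPS, 354, 350.4 and 334 in the libraries labelled KO medium and 1277, 2042 and 1550 in those labelled KO LPS. The 6 libraries of WT LPS and labelled KO medium lay below the other 6. The fold was −1.87 ± 0.35 (edgeR adjusted p = 0.00361) with LPS in WT and 1.94 ± 0.35 (edgeR adjusted p = 0.00252) between labelled KO LPS and WT LPS, each called in every alternative fit and without any single library. Npc2, on chromosome 12 at 84754562 to 84773152, binds the freed cholesterol in the lumen and hands it to Npc1. Npc2 stood at 1710, 2147 and 1463 CPM in WT medium, 2518, 2738 and 2446 in WT LPS, 2705, 2750 and 2235 in the libraries labelled KO medium and 1908, 1794 and 2112 in those labelled KO LPS. WT LPS lay above WT medium without overlap, by a log2 fold of 1.09 ± 0.30 (edgeR adjusted p = 0.0253). Leaving out a library ended that call for WT medium 1 (0.1), WT medium 3 (0.105), WT LPS 1 (0.0809) or WT LPS 3 (0.0878). It was also lost with library totals alone, at 0.53 (edgeR adjusted p = 0.0913), and without the filter on low counts (edgeR adjusted p = 0.103). The fold of Npc2 in labelled KO LPS against WT LPS was −0.92 ± 0.30 (edgeR adjusted p = 0.0431). Its call was lost without WT medium 1 (0.0611), WT LPS 1 (0.0984), WT LPS 3 (0.104), labelled KO medium 1 (0.063), labelled KO medium 2 (0.053), labelled KO LPS 1 (0.066), labelled KO LPS 2 (0.141) or labelled KO LPS 3 (0.0932). It was lost as well with library totals alone (edgeR adjusted p = 0.183), without the filter (0.147) and with a replicate block (0.0681). Npc1, the membrane protein that exports the cholesterol, on chromosome 18 at 12189692 to 12236400, stood at 354, 150.1 and 332 CPM in WT medium, 49.9, 167 and 50.4 in WT LPS, 47.1, 38.6 and 57.5 in the libraries labelled KO medium and 224, 442 and 391 in those labelled KO LPS. WT LPS 2 was above WT medium 2, so these groups overlapped, and the fold was −1.10 ± 0.41 (edgeR adjusted p = 0.0868). Labelled KO LPS lay above WT LPS by 1.56 ± 0.42 (edgeR adjusted p = 0.0191), and the call was lost without WT LPS 1 (0.0772), WT LPS 3 (0.0959), labelled KO LPS 2 (0.0734) or labelled KO LPS 3 (0.0595). Npc1 shares exon sequence with Rmc1 on the opposite strand, which had a mean level of 22.8% of that of Npc1.

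Psap encodes the precursor of the saposins, which present lipids to hydrolases, and was the most abundant lipid-related gene. Psap stood at 19540, 9882 and 15230 CPM in WT medium, 6155, 7177 and 5673 in WT LPS, 7429, 5386 and 6568 in the libraries labelled KO medium and 11680, 26880 and 24230 in those labelled KO LPS. All WT LPS libraries lay below all WT medium libraries, and the fold was −0.62 ± 0.35 (edgeR adjusted p = 0.254) with TMM and −1.23 (edgeR adjusted p = 0.0222) with library totals alone. Labelled KO LPS lay above WT LPS by 1.21 ± 0.36 (edgeR adjusted p = 0.0284). The call was lost without WT LPS 1 (0.058), WT LPS 2 (0.0565), WT LPS 3 (0.0949), labelled KO LPS 2 (0.115) or labelled KO LPS 3 (0.094), and with the replicate number as a block (edgeR adjusted p = 0.0536). Grn, the precursor of lysosomal granulins, stood at 2176, 1966 and 1946 CPM in WT medium, 2292, 2644 and 2469 in WT LPS, 2409, 2364 and 2139 in the libraries labelled KO medium and 2363, 2605 and 2810 in those labelled KO LPS. WT LPS lay above WT medium by 0.87 ± 0.25 (edgeR adjusted p = 0.031). That call was lost without WT medium 1 (0.0959), WT medium 3 (0.122), WT LPS 1 (0.0859), WT LPS 3 (0.119), labelled KO medium 1 (0.0608) or labelled KO LPS 2 (0.052). It was also lost with library totals alone, at 0.28 (edgeR adjusted p = 0.299), without the filter on low counts (edgeR adjusted p = 0.249) and with a replicate block (0.0622). In labelled KO LPS against WT LPS the fold was −0.44 ± 0.25 (edgeR adjusted p = 0.215). Acid ceramidase (Asah1) and palmitoyl-protein thioesterase 1 (Ppt1) were not called in any comparison of 2 groups, with WT folds of −0.62 ± 0.41 (edgeR adjusted p = 0.323) and −0.12 ± 0.24 (edgeR adjusted p = 0.776). Ppt1 is uncertain, since Cap1, which shares exon sequence with it on the opposite strand, had a mean level of 642% of that of Ppt1.

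**Figure D2:**
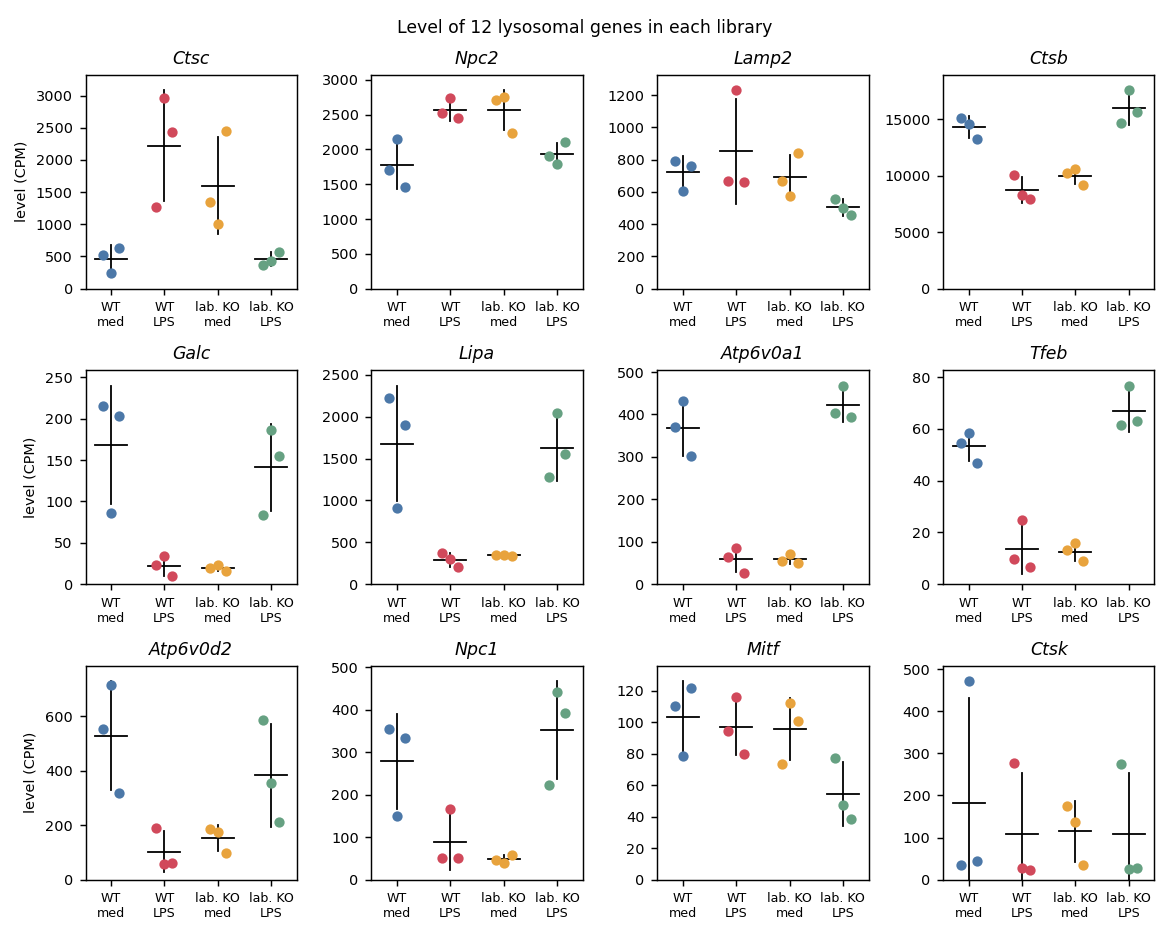
Level in CPM (linear axes from 0) of 12 genes in each library, with points for libraries in the order 1, 2 and 3, horizontal lines for group means and vertical lines for 1 SD (n = 3). Galc, Lipa, Atp6v0a1 and Tfeb are low and Ctsc is high in WT LPS and in labelled KO medium (lab. KO med), and Ctsk varies within every group.

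Of the membrane proteins, Lamp2 was the 1 called with LPS in WT. Lamp2, on the X chromosome at 38401357 to 38456454, is a heavily glycosylated protein of the lysosomal membrane with an isoform needed for chaperone-mediated autophagy. Lamp2 stood at 793, 608 and 761 CPM in WT medium, 668, 1229 and 659 in WT LPS, 669, 575 and 840 in the libraries labelled KO medium and 558, 498 and 455 in those labelled KO LPS. WT LPS and WT medium overlapped in CPM, and WT LPS 2 was the highest library. With TMM scaling the fold was 0.80 ± 0.25 (edgeR adjusted p = 0.0434), and 11 of the 12 fits without a library lost the call, with edgeR adjusted p from 0.0375 to 0.133 over the 12. The fits without a library that lost it were those without WT medium 1 (0.105), WT medium 2 (0.0873), WT medium 3 (0.133), WT LPS 1 (0.0781), WT LPS 2 (0.0992), WT LPS 3 (0.0797), labelled KO medium 1 (0.0885), labelled KO medium 2 (0.0752), labelled KO medium 3 (0.0692), labelled KO LPS 2 (0.0693) or labelled KO LPS 3 (0.0579). With library totals alone the fold was 0.24 (edgeR adjusted p = 0.525), and the call was also lost without the filter on low counts (edgeR adjusted p = 0.274) and with a replicate block (0.0814). Labelled KO LPS was the lowest group in every library, and its fold against WT LPS was −1.23 ± 0.25 (edgeR adjusted p = 0.00507) with TMM and −0.76 (edgeR adjusted p = 0.061) with library totals alone. Mcoln1, the calcium and iron channel mucolipin 1, stood at 75.8, 39.5 and 72.6 CPM in WT medium, 29.1, 33.2 and 23.5 in WT LPS, 25.4, 15.6 and 22.2 in the libraries labelled KO medium and 52.5, 66.7 and 61.4 in those labelled KO LPS. In CPM the WT LPS libraries all lay below the WT medium libraries, while on the TMM scale they overlapped. The fold was −0.51 ± 0.26 (edgeR adjusted p = 0.198). Against WT LPS, labelled KO LPS had a fold of 0.57 ± 0.26 (edgeR adjusted p = 0.13). Lamp1, the major membrane glycoprotein, and Scarb2, the receptor that carries β-glucocerebrosidase to lysosomes, were not called, with WT folds of −0.16 ± 0.32 (edgeR adjusted p = 0.786) and −0.01 ± 0.34 (edgeR adjusted p = 0.985).

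In the proton pump, 1 of the 14 genes was called between WT LPS and WT medium. This was Atp6v0a1, on chromosome 11 at 101009452 to 101063719, which encodes the a1 isoform of the V0 subunit through which protons pass. Atp6v0a1 stood at 370.3, 432 and 302 CPM in WT medium, 64.7, 84.8 and 25.7 in WT LPS, 55.5, 72 and 50.2 in the libraries labelled KO medium and 403, 467 and 394 in those labelled KO LPS. The highest of the 6 low libraries was at 84.8 CPM and the lowest of the 6 high ones at 302 CPM. The fold was −2.13 ± 0.39 (edgeR adjusted p = 0.00323) with LPS in WT and 2.37 ± 0.39 (edgeR adjusted p = 0.00164) between labelled KO LPS and WT LPS, and both stood in every alternative fit and without any single library. Atp6v0d2, on chromosome 4 at 19876841 to 19922605, encodes the d2 isoform of the stalk subunit, used in osteoclasts and macrophages. Atp6v0d2 stood at 552, 713 and 317 CPM in WT medium, 189, 58.8 and 60.3 in WT LPS, 185, 176 and 98 in the libraries labelled KO medium and 585, 355 and 211 in those labelled KO LPS. All WT LPS libraries were below all WT medium libraries in CPM, while on the TMM scale they overlapped. Within each group Atp6v0d2 was highest in CPM in the libraries with high Ctsk named above, and the part of this in its folds was not tested. Its fold with LPS in WT was −1.75 ± 0.61 (edgeR adjusted p = 0.0683), which missed the threshold. It was called lower with DESeq2 (adjusted p = 0.0128), with library totals alone (edgeR adjusted p = 0.00935), without the filter on low counts (0.00267), with a replicate block (0.022), with an Xist term (0.00651) and without WT LPS 1 (0.0139). In labelled KO LPS against WT LPS its fold was 1.31 ± 0.60 (edgeR adjusted p = 0.133), called without the filter (edgeR adjusted p = 0.0246), with an Xist term (0.0161), without WT LPS 1 (0.0251) and with library totals alone, at 1.90 (edgeR adjusted p = 0.0194). Atp6v0b, a proteolipid of the proton-carrying ring, stood at 268, 449 and 276 CPM in WT medium, 377, 191 and 277 in WT LPS, 338, 378 and 203 in the libraries labelled KO medium and 382, 271 and 242 in those labelled KO LPS, with overlapping groups and a fold of −0.48 ± 0.43 (edgeR adjusted p = 0.454) between labelled KO LPS and WT LPS. The ubiquitous d1 isoform (Atp6v0d1) and the ring subunit Atp6v0c had WT folds of −0.11 ± 0.30 (edgeR adjusted p = 0.837) and 0.19 ± 0.42 (edgeR adjusted p = 0.805).

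None of the 7 V1 genes was called with LPS in WT by edgeR, with 2 at an unadjusted p under 0.05. These 2 were Atp6v1e1 and Atp6v1d, subunits of the peripheral and central stalks. Atp6v1e1 stood at 192, 404 and 209.7 CPM in WT medium, 606, 237 and 382 in WT LPS, 586, 602 and 409.7 in the libraries labelled KO medium and 358, 259.9 and 234 in those labelled KO LPS, and its fold was 1.19 ± 0.48 (edgeR adjusted p = 0.109) with LPS in WT and −1.10 ± 0.48 (edgeR adjusted p = 0.117) between labelled KO LPS and WT LPS. Atp6v1d stood at 128, 202 and 135 CPM in WT medium, 212, 150.4 and 192 in WT LPS, 231, 231 and 197 in the libraries labelled KO medium and 168, 107 and 91.4 in those labelled KO LPS. Its fold was 0.83 ± 0.36 (edgeR adjusted p = 0.134) with LPS in WT. In labelled KO LPS against WT LPS it was −1.13 ± 0.36 (edgeR adjusted p = 0.0406). That call was lost without WT LPS 1 (0.127), WT LPS 3 (0.12), labelled KO medium 1 (0.0648), labelled KO medium 2 (0.058), labelled KO medium 3 (0.051), labelled KO LPS 2 (0.137) or labelled KO LPS 3 (0.148), and with library totals alone (edgeR adjusted p = 0.129). The nucleotide-binding subunit Atp6v1b2 and the regulatory subunit Atp6v1c1 had folds of 0.32 ± 0.23 and 0.36 ± 0.33 between these groups, without a call (edgeR adjusted p = 0.338 and 0.462). Atp6v1b2 stood at 707, 623 and 634 CPM in WT medium, 412, 519 and 328 in WT LPS, 409.8, 335 and 394 in the libraries labelled KO medium and 765, 784 and 678 in those labelled KO LPS. Atp6v1c1 stood at 228, 275 and 206 CPM in WT medium, 97.9, 138 and 76.3 in WT LPS, 82.2, 78.9 and 81.8 in the libraries labelled KO medium and 272, 169 and 118 in those labelled KO LPS. In CPM both were lower in every WT LPS library than in every WT medium library. On the TMM scale this held for Atp6v1c1, while for Atp6v1b2 these libraries overlapped. The catalytic subunit Atp6v1a, Atp6v1f and Atp6v1h had WT folds of −0.61 ± 0.32, −0.05 ± 0.44 and 0.14 ± 0.38, none called. The accessory protein Atp6ap1, needed for assembly, stood at 540.2, 316 and 525 CPM in WT medium, 241, 253 and 179.8 in WT LPS, 239, 159.8 and 217 in the libraries labelled KO medium and 401, 538 and 512 in those labelled KO LPS. Atp6ap2, the prorenin receptor, stood at 268, 199 and 259 CPM in WT medium, 147, 152 and 148 in WT LPS, 124, 121 and 161 in the libraries labelled KO medium and 230.2, 198 and 136 in those labelled KO LPS. Their folds with LPS in WT were −0.42 ± 0.26 (edgeR adjusted p = 0.3) and −0.09 ± 0.24 (edgeR adjusted p = 0.844). Both genes were lower in CPM in all WT LPS than in all WT medium libraries, while on the TMM scale these libraries overlapped.

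**Figure D3:**
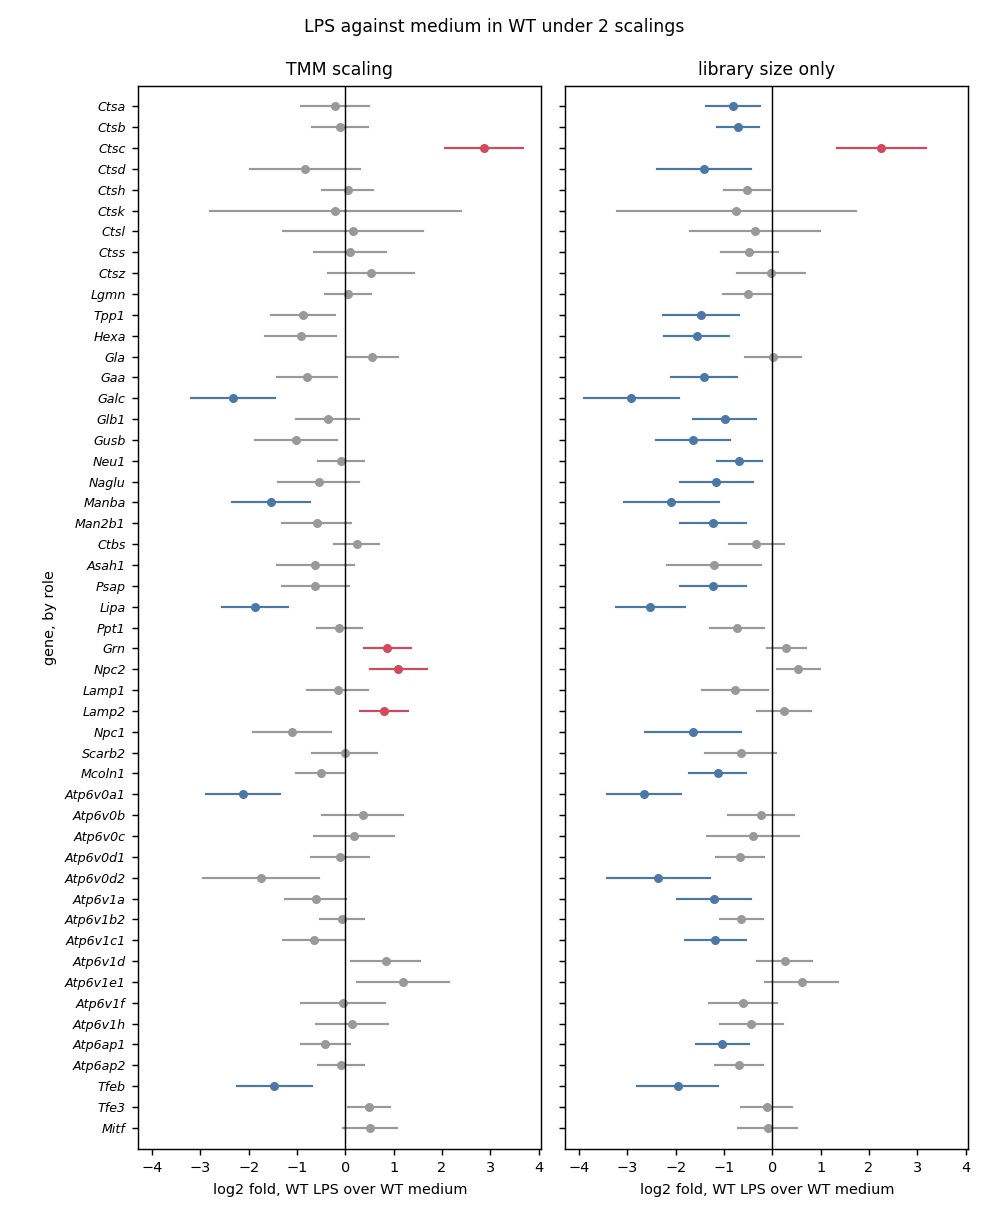
Log2 fold of each of the 50 genes between WT LPS and WT medium with TMM scaling (left) and with library totals alone (right). Lines show the normal-approximation 95% interval, which is narrower than that of the F test. Red marks genes called higher, blue called lower and grey not called, at an edgeR adjusted p under 0.05. With TMM 4 genes are red and 5 blue, and with library totals 1 is red (Ctsc) and 23 are blue.

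Of the 3 MiT/TFE factors, Tfeb fell with LPS in WT and the others were not called. Tfeb, on chromosome 17 at 47737030 to 47792419, stood at 54.4, 58.5 and 46.9 CPM in WT medium, 9.69, 24.6 and 6.63 in WT LPS, 13.1, 15.7 and 8.76 in the libraries labelled KO medium and 61.5, 76.6 and 62.9 in those labelled KO LPS. WT LPS and labelled KO medium libraries had at most 24.6 CPM, and all others at least 46.9 CPM. The fold was −1.47 ± 0.40 (edgeR adjusted p = 0.0226) with LPS in WT, and the call was lost without WT medium 1 (0.0552), WT medium 2 (0.0573), WT LPS 1 (0.084) or WT LPS 3 (0.0966). For labelled KO LPS against WT LPS it was 1.86 ± 0.40 (edgeR adjusted p = 0.00648), called without any single library and in every alternative fit. Tfe3, its X-linked relative, stood at 191, 127 and 209 CPM in WT medium, 130.5, 193 and 162 in WT LPS, 136, 119 and 159.5 in the libraries labelled KO medium and 173, 224 and 249.7 in those labelled KO LPS, and was not called in any comparison, with a WT fold of 0.49 ± 0.22 (edgeR adjusted p = 0.155). Mitf, on chromosome 6 at 97807052 to 98021349, stood at 111, 78.3 and 122 CPM in WT medium, 94.8, 116 and 80.1 in WT LPS, 73.6, 112 and 101 in the libraries labelled KO medium and 77.3, 47.3 and 38.3 in those labelled KO LPS. On the TMM scale the labelled KO LPS libraries were the lowest 3, and the fold against WT LPS was −1.33 ± 0.29 (edgeR adjusted p = 0.00705). That call was lost with library totals alone (edgeR adjusted p = 0.0568), although the direction was the same. With LPS in WT, Mitf had a fold of 0.51 ± 0.29 (edgeR adjusted p = 0.249).

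Compared with WT LPS, the libraries labelled KO LPS had 11 of the 50 genes called higher, beside 10.4% of all tested genes, and 5 lower, beside 13.7%. The 11 were Tpp1, Hexa, Gaa, Galc, Manba, Man2b1, Psap, Lipa, Npc1, Atp6v0a1 and Tfeb, and the 5 were Ctsc, Npc2, Lamp2, Atp6v1d and Mitf. The median of the 50 was 0.32, and that of all tested genes 0.0649. Without TMM 25 were called higher and 1 lower, at a median of 0.81 for the 50 and 0.569 for all genes, of which 25.3% were called higher and 8.67% lower. All 11 and Ctsc were called the same way under both scalings. The groups did not overlap for 16 of the 50 genes with labelled KO LPS above (18.3% of all tested genes) and for 7 with it below (19.7%). The 16 calls fell to 8 without WT LPS 3, without labelled KO LPS 2 or without labelled KO LPS 3. In these fits calls among all tested genes fell too, from 3324 to 1830, 1818 and 1970. The 8 genes called in each of the 12 fits without a library were Ctsc, Galc, Manba, Lipa, Lamp2, Atp6v0a1, Tfeb and Mitf. The 11 higher calls of the 50 became 6 without WT LPS 2, while those of all tested genes went from 1435 to 1516. The 5 lower calls of the 50 became 3 without WT LPS 1 or labelled KO medium 1 or 2. There 2472, 2808 and 3028 of all tested genes were called in either direction. Since the levels of Nlrc3 and Nos2 went against the labels, no direction by genotype is drawn from these values.

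In medium, the libraries labelled KO had 6 genes called higher than WT, beside 14% of all tested genes, and 6 lower, beside 12.3%. Higher were Ctsc (2.64 ± 0.41), Npc2 (1.33 ± 0.30), Grn (1.01 ± 0.25), Lamp2 (0.77 ± 0.25), Atp6v1d (1.29 ± 0.36) and Atp6v1e1 (1.76 ± 0.49). Lower were Galc (−2.22 ± 0.44), Manba (−1.93 ± 0.42), Atp6v0a1 (−1.83 ± 0.39), Npc1 (−1.68 ± 0.42), Lipa (−1.41 ± 0.35) and Tfeb (−1.27 ± 0.39). Under library totals only 1 was called higher and 27 lower, beside 7.77% and 40.5% of all tested genes, and Ctsc and the 6 lower genes were called under both scalings. With library totals Lamp2 changed direction, to −0.05 (edgeR adjusted p = 0.895). Without the filter on low counts the calls of Grn (edgeR adjusted p = 0.12) and Lamp2 (0.294) were lost. The groups did not overlap for 8 genes above and 8 below (21.2% and 21.5% of all tested genes). Without WT medium 1, 7 genes were called (3 higher). The 6 higher calls became 2 without WT medium 3 or labelled KO medium 1 and 3 without labelled KO medium 2. The call of Lipa ended without WT medium 1 (0.0536), and that of Tfeb without WT medium 1 (0.074), WT medium 2 (0.0706), labelled KO medium 1 (0.0895) or labelled KO medium 3 (0.107) and with an Xist term (0.0643). Grn lost its call without WT medium 3 (0.0601) or labelled KO medium 1 (0.0548), Atp6v1d without WT medium 1 (0.0915), WT medium 3 (0.0916), labelled KO medium 1 (0.08) or labelled KO medium 2 (0.0801) and Atp6v1e1 without WT medium 1 (0.0855), WT medium 3 (0.0853), labelled KO medium 1 (0.0689) or labelled KO medium 2 (0.0706). Lamp2 lost it in 10 of the 12 such fits, those without WT medium 1 (0.094), WT medium 2 (0.0768), WT medium 3 (0.123), WT LPS 1 (0.0681), WT LPS 3 (0.0671), labelled KO medium 1 (0.13), labelled KO medium 2 (0.0874), labelled KO medium 3 (0.136), labelled KO LPS 2 (0.0619) or labelled KO LPS 3 (0.0521), and with a replicate block (0.069).

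Within the libraries labelled KO, LPS against medium gave 8 genes called higher, beside 15.1% of all tested genes, and 6 lower, beside 15.3%. Higher were Manba (2.29 ± 0.42), Npc1 (2.14 ± 0.43), Galc (2.09 ± 0.44), Atp6v0a1 (2.07 ± 0.39), Tfeb (1.65 ± 0.40), Lipa (1.48 ± 0.35), Tpp1 (0.97 ± 0.34) and Mcoln1 (0.77 ± 0.26). Lower were Ctsc (−2.53 ± 0.41), Atp6v1e1 (−1.66 ± 0.49), Atp6v1d (−1.59 ± 0.37), Mitf (−1.55 ± 0.29), Lamp2 (−1.20 ± 0.25) and Npc2 (−1.16 ± 0.30). With library totals alone 30 were called higher and 3 lower, beside 38.6% and 8.55% of all tested genes, and 8 higher and 3 lower were called under both. The libraries did not overlap for 9 genes above and 7 below (23.3% and 22.5% of all tested genes). Tpp1 lost its call without WT medium 3 (0.0637), WT LPS 1 (0.0533), WT LPS 3 (0.0552), labelled KO medium 1 (0.0698), labelled KO medium 2 (0.146), labelled KO medium 3 (0.0722), labelled KO LPS 2 (0.16) or labelled KO LPS 3 (0.129), and with a replicate block (0.069). Mcoln1 lost it without WT medium 1 (0.0519), WT medium 3 (0.0593), labelled KO medium 2 (0.127), labelled KO medium 3 (0.0862), labelled KO LPS 2 (0.132) or labelled KO LPS 3 (0.102), Atp6v1e1 without labelled KO medium 1 (0.0669), labelled KO medium 2 (0.0704), labelled KO LPS 2 (0.0823) or labelled KO LPS 3 (0.0877) and Npc2 without labelled KO LPS 2 (0.0592). With an Xist term the calls of Tpp1 (edgeR adjusted p = 0.221), Mcoln1 (0.113) and Atp6v1e1 (0.0717) were lost. That of Mcoln1 was also lost without the filter on low counts (edgeR adjusted p = 0.103). The other 10 were called without any single library.

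**Figure D4:**
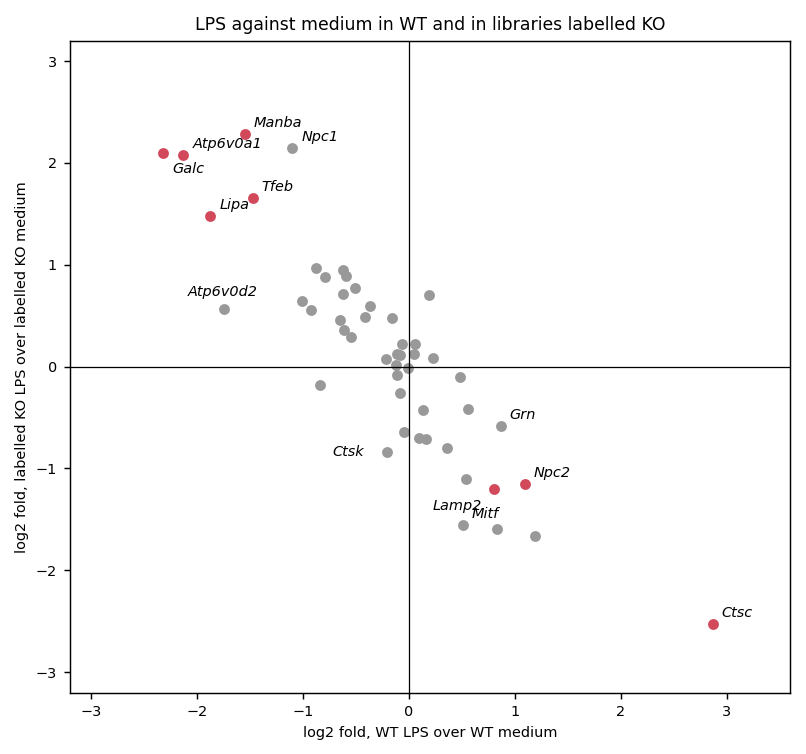
Log2 fold of LPS over medium for each of the 50 genes in WT (horizontal) and in the libraries labelled KO (vertical), with TMM scaling; the 8 genes called in both are red and some others are named. The points run from the upper left to the lower right, and 40 of 50 lie in the upper left or lower right field.

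The LPS response in WT and that in the libraries labelled KO share no library, and they ran in opposite directions. Of the 50 genes, 40 (80%) had opposite signs, against 78.4% of the 13773 tested genes. The correlation of the folds was −0.886 across the 50 genes and −0.837 across all tested genes, as a description, since genes are not independent replicates. All 8 genes called in both, namely Ctsc, Galc, Manba, Lipa, Npc2, Lamp2, Atp6v0a1 and Tfeb, had opposite directions, as did all 2147 such genes in the whole table. The test of the difference between the responses (labelled KO minus WT) called 14 of the 50 genes higher, beside 20.5% of all tested genes, and 7 lower, beside 20.6%. Without TMM 34 were called higher and 4 lower, beside 47.9% and 11.2% of all tested genes, and 14 higher and 4 lower were called under both. The 14 higher calls became 9 without WT medium 1 or labelled KO LPS 2, and with an Xist term. In these fits higher calls among all tested genes went from 2825 to 2320, 2287 and 2646. Among the 50 genes the largest difference was that of Ctsc, at −5.39 ± 0.58 (edgeR adjusted p = 2.86e-05), followed by Galc at 4.41 ± 0.62 (edgeR adjusted p = 0.000194) and Atp6v0a1 at 4.20 ± 0.55 (edgeR adjusted p = 0.000116).

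Set beside each other across labels, the groups with alike Nos2 gave no calls in edgeR with TMM, the filter on low counts and all 12 libraries. Between labelled KO medium and WT LPS edgeR called 0 of the 50 genes higher and 0 lower, beside 0% of all tested genes in each direction. DESeq2 called 0 genes in all, and at an unadjusted p under 0.05 edgeR had 0 of the 50 and 269 of all genes (1.95%). The normal-approximation 95% intervals of the 50 log2 folds reached from −2.38 to 2.81, and a median interval reached 0.679 to either side of its fold. These intervals are narrower than those of the F test would be. They are also not adjusted over all tested genes as the calls are, so differences larger than this could also go uncalled. No gene of the 50 had libraries of labelled KO medium all above or all below those of WT LPS (1.88% and 3.57% of all tested genes). Between labelled KO LPS and WT medium edgeR called 0 higher and 0 lower, beside 0% of all tested genes in each direction. At an unadjusted p under 0.05 it had 1 of the 50, Mitf (−0.82 ± 0.29), and 1135 of all genes (8.24%), while DESeq2 called 41 of all genes and 0 of the 50. The intervals reached from −3.45 to 1.78, and libraries did not overlap for 3 genes above and 2 below (5.84% and 4.73%). Without labelled KO LPS 1, edgeR called 1 of the 50 genes, Mitf, lower (−1.18, adjusted p = 0.0497), beside 244 of all 13773 tested genes. Leaving out the filter on low counts, it called 0 of the 50 and 99 of 27062 genes. Between labelled KO medium and WT LPS that fit called 0 of the 50 and 3 of all genes.

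Shares within a library do not depend on scaling between libraries, and those of pump and factor isoforms differed between groups. The sets of genes were chosen after their levels were seen, so the shares are descriptions, and 3 libraries against 3 cannot go below a p of 0.1 in an exact permutation test. Among the subunit a genes, Atp6v0a1 made up 27.2%, 30.9% and 24.3% of the summed FPKM in WT medium. It made up 4.99%, 7.31% and 2.16% in WT LPS, 4.53%, 5.91% and 3.78% in labelled KO medium, and 27.3%, 29.9% and 26.4% in labelled KO LPS. Its mean thus went from 27.5% ± 3.31 to 4.82% ± 2.58 with LPS in WT (SD, n = 3), while Tcirg1, the a3 isoform of lysosomes and osteoclasts, went from 68.4% ± 2.51 to 90.2% ± 4.77. In subunit d, Atp6v0d2 held 60.9% ± 6.80 against Atp6v0d1 in WT medium and 31.3% ± 13.9 in WT LPS, without overlap between their libraries. It held 40.8% ± 3.67 in labelled KO medium and 47.0% ± 9.64 in labelled KO LPS. Among the MiT/TFE factors, Tfeb held 18.8% ± 4.69 in WT medium, 5.58% ± 3.18 in WT LPS, 5.82% ± 1.90 in labelled KO medium and 23.8% ± 2.28 in labelled KO LPS. Mitf held 32.4% ± 2.82, 37.9% ± 5.79, 39.6% ± 4.74 and 17.8% ± 7.34 in the same order. Ctsc made up 0.832% ± 0.495 of the cysteine cathepsins in WT medium, 5.11% ± 2.52 in WT LPS, 3.25% ± 2.16 in labelled KO medium and 0.828% ± 0.268 in labelled KO LPS.

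**Figure D5:**
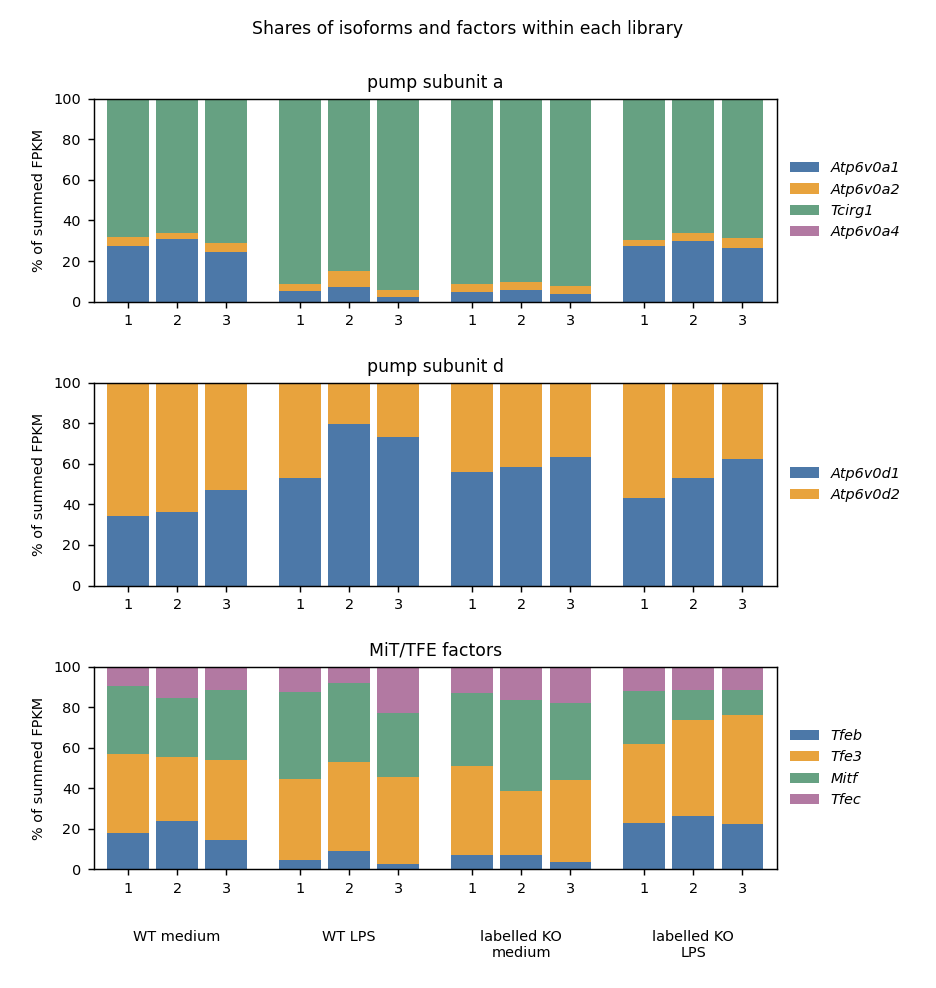
Share of each gene in the summed FPKM of its set (bars from 0 to 100%) in each of the 12 libraries, numbered as in the labels, for the pump subunits a and d and the MiT/TFE factors. The Atp6v0a1 share lies between 24.3% and 30.9% in WT medium and labelled KO LPS and between 2.16% and 7.31% in the other groups.

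Other genes of the lysosomal system, taken from lists written with earlier results of these data known, are given by their counts, beside the 11.9% of all tested genes called higher and 6.46% called lower with LPS in WT (7.49% and 23.1% with library totals alone). Of 31 other hydrolases and cofactors, 1 rose and 3 fell with LPS in WT. Naaa, an acid amidase, rose by 1.87 ± 0.40 (edgeR adjusted p = 0.00697), and heparan sulfamidase (Sgsh), the phospholipase Pla2g15 and Dnase2a had folds of −3.16 ± 0.77, −2.01 ± 0.59 and −1.52 ± 0.49. Of 25 tested membrane proteins, 4 rose and 5 fell, among them the peptide transporter Slc15a3 (2.15 ± 0.35), the channel Mcoln2 (1.98 ± 0.41) and the chloride exchanger Clcn7 (1.11 ± 0.28), which rose, and the channels Mcoln3 (−5.87 ± 1.16) and Tpcn1 (−2.82 ± 0.59) and the cystine exporter Ctns (−1.95 ± 0.53), which fell. Of 7 tested other pump genes, 1 was called, Tcirg1, at 0.87 ± 0.25 (edgeR adjusted p = 0.0317), and it was not called with library totals alone (edgeR adjusted p = 0.307). With library totals alone 1 of the hydrolases was called higher and 13 lower, and of the membrane proteins 2 and 10. Clcn7 was then not called (edgeR adjusted p = 0.203), while every fall named here and in the next paragraph was called under both scalings. Leaving out libraries was run for the 50 genes and not for these lists.

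For sorting by mannose 6-phosphate, which brings hydrolases to lysosomes, 2 of 13 genes rose (M6pr, the small receptor, 1.29 ± 0.24, and Gnptab, which makes the tag, 0.83 ± 0.25) and 2 fell (Sort1, −2.16 ± 0.56, and Gga2, −1.76 ± 0.39). Of 20 tested genes of nutrient sensing at the lysosome, 0 rose and 2 fell, the Rag GTPase Rragd (−2.72 ± 0.51) and Bhlhe41 (−1.97 ± 0.50). Of 22 autophagy genes, 2 rose (Optn, and Atg16l1, 0.80 ± 0.23) and 4 fell, among them Calcoco1 (−1.81 ± 0.50), the kinase Ulk2 (−1.76 ± 0.49) and Gabarapl1 (−1.29 ± 0.25). Of 8 tested inhibitors of cysteine cathepsins, Cst7, cystatin F, an inhibitor of cathepsin C among others, rose by 5.35 ± 0.52 (edgeR adjusted p = 7.89e-05), and Serpinb6a had a fold of −1.15 ± 0.34. Under library totals only Gnptab, Optn and Atg16l1 were not called, and 6, 7 and 7 genes of these 3 lists were called in all, with 1, 0 and 0 of them higher. Cst7 stood at 2.67, 2.14 and 3.53 CPM in WT medium, 92.5, 58.5 and 66.8 in WT LPS, 77.8, 109.6 and 73.8 in the libraries labelled KO medium and 3.16, 8.57 and 12.8 in those labelled KO LPS. Both Cst7 and Ctsc were thus high in the same 6 libraries. Of 14 tested osteoclast and cell fusion genes, a list that also holds Atp6v0d2, Ctsk and some genes of the lists above, 4 rose, among them Clcn7 and Tcirg1, already counted above, and Car2, carbonic anhydrase 2, and with library totals alone 2 were called higher and 2 lower. Car2 stood at 4.25, 12.1 and 5.12 CPM in WT medium, 65.6, 16.3 and 31.4 in WT LPS, 46.7, 40.3 and 25.6 in the libraries labelled KO medium and 8.33, 6.77 and 8.48 in those labelled KO LPS.

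In labelled KO LPS against WT LPS, 5 of the 31 other hydrolases were called higher and 2 lower, beside 10.4% and 13.7% of all tested genes, with Sgsh at 4.12 ± 0.80, Ctse at 3.63 ± 1.03 and Pla2g15 at 2.54 ± 0.60 among the higher and Naaa at −1.70 ± 0.39 among the lower. Of the 25 membrane proteins 7 were higher and 4 lower, with Mcoln3 at 4.78 ± 1.12, Tpcn1 at 3.37 ± 0.60, Ctns at 2.30 ± 0.54, Slc15a3 at −1.95 ± 0.35, Mcoln2 at −1.85 ± 0.41 and Clcn7 at −0.88 ± 0.28. None of the 7 other pump genes was called, with 1 at an unadjusted p under 0.05 in edgeR. Of the 13 sorting genes 3 were higher (Sort1, Gga2 and Ap1b1) and 2 lower (M6pr and Gnptab). Of the 20 nutrient sensing genes 3 were higher, Rragd (2.38 ± 0.51), Flcn, a regulator of the Rag GTPases (1.94 ± 0.58), and Bhlhe41 (1.60 ± 0.50), and 0 lower. Of the 22 autophagy genes 3 were higher (Calcoco1, Gabarapl1 and Atg7) and 2 lower (Optn and Atg16l1). Of the 8 inhibitors 0 were higher and 2 lower, Cst7 (−3.70 ± 0.48) and Stfa3, a stefin at a low level, and of the 14 osteoclast genes 1 was higher (Itgb3, 1.82 ± 0.60) and 3 lower, among them Car2 (−2.86 ± 0.62). With library totals alone the lower calls of Clcn7, Gnptab, Optn and Atg16l1 were among those lost, and the higher calls named here stood. Called lower under both scalings were 1 of the 2 hydrolases, 2 of the 4 membrane proteins and 1 of the 2 inhibitors.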

How the data were processed

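RNA from 12 libraries of mouse bone marrow-derived macrophages, 4 groups of 3 as named in the labels, was analysed from the deposited table of raw read counts per gene and the deposited table of FPKM. The authors' reads were placed on mm10, per the submitters' processing notes, and for the aligner, the counter and its strand setting the sources used here give nothing. The labels name TruSeq and KAPA Stranded kits. The authors' FPKM values were found to be the deposited counts scaled by gene length and library, and were used only for levels per length and shares within sets.

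Counts (13082947 to 20960505 per library) were tested with edgeR 4.0.16 in R 4.3.3: TMM factors, filterByExpr by group (13773 of 54446 genes, 27384 having 0 counts throughout), a quasi-likelihood fit with a mean per group over all 12 libraries, contrasts of groups and the interaction, and Benjamini-Hochberg adjustment. An SE is the fold divided by the root of F. Intervals combine this SE with the 95% factor of a normal distribution, so they are narrower than 95% intervals of the F test. Alternatives were DESeq2 1.42.0, library totals without TMM, no filter on low counts, a replicate block, a term for Xist above 50 CPM, and leaving out each library. No 2 libraries agreed within sampling noise.

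The 50 genes, the further lists and the alternatives were chosen with earlier results of these data known. Values for each library are given for Atp6v0d2, the 3 factors and, in each role group, the 2 genes with the smallest p between WT LPS and WT medium and in each direction between labelled KO LPS and WT LPS. Other members are named where called or as examples. From the further lists up to 3 called rises and 3 called falls at 5 CPM or more are named, except for a gene that is not reported here. Ctsk, Ctsl and the marker Adgre1 were singled out after their values were seen. Gene positions follow GENCODE on mm10, and promoters were read from RefSeq (GRCm38.p6) with Python 3.11.15.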

Additional observations from a re-analysis of the deposited data

Results flagged for a closer look

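The difference between the LPS response in the libraries labelled KO and that in WT (labelled KO minus WT, log2, edgeR interaction) passed the threshold for 21 of the 50 genes. It was positive for Galc (4.41), Atp6v0a1 (4.20), Manba (3.83), Lipa (3.35), Npc1 (3.24), Tfeb (3.13), Atp6v0d2 (2.31) and Tpp1 (1.84). It was positive as well, and smaller, for Gaa (1.67), Gusb (1.65), Psap (1.56), Man2b1 (1.49), Hexa (1.48) and Mcoln1 (1.28). It was negative for Ctsc (−5.39), Atp6v1e1 (−2.86), Atp6v1d (−2.43), Npc2 (−2.25), Mitf (−2.06), Lamp2 (−1.999) and Grn (−1.45). Of all tested genes, 20.5% were called with a positive and 20.6% with a negative difference. Of the 21 genes, 16 were called in each of the 12 fits without a library, and the others lost their call in some. Hexa lost it without WT medium 1 (0.0843), WT medium 3 (0.0631), WT LPS 2 (0.0782), WT LPS 3 (0.0778), labelled KO medium 3 (0.0679), labelled KO LPS 2 (0.101) or labelled KO LPS 3 (0.0888). Gusb lost it without WT medium 1 (0.0834), WT medium 2 (0.0566), WT medium 3 (0.0568), WT LPS 2 (0.0896), WT LPS 3 (0.0818), labelled KO medium 2 (0.0577), labelled KO medium 3 (0.0749), labelled KO LPS 1 (0.0571), labelled KO LPS 2 (0.0811) or labelled KO LPS 3 (0.0828), Man2b1 without WT medium 1 (0.0799), WT medium 3 (0.0545), WT LPS 2 (0.0687), WT LPS 3 (0.0641), labelled KO medium 2 (0.0524), labelled KO medium 3 (0.0578), labelled KO LPS 2 (0.0842) or labelled KO LPS 3 (0.0908) and Psap without WT medium 1 (0.0709), labelled KO LPS 2 (0.0693) or labelled KO LPS 3 (0.0596). Atp6v0d2 (edgeR adjusted p = 0.0468) lost its call in 9 of the 12, those without WT medium 1 (0.0712), WT medium 2 (0.0819), WT LPS 2 (0.0853), WT LPS 3 (0.0957), labelled KO medium 1 (0.0608), labelled KO medium 2 (0.0564), labelled KO medium 3 (0.0879), labelled KO LPS 1 (0.103) or labelled KO LPS 2 (0.0696). With a replicate block Hexa (0.0552) and Man2b1 (0.052) were not called. With an Xist term, Tpp1, Hexa, Gaa, Man2b1, Psap and Mcoln1 were not called (edgeR adjusted p from 0.0553 to 0.159), and with library totals alone Grn, Lamp2 and Mitf were not (0.153 to 0.754). Grn was also not called without the filter on low counts (edgeR adjusted p = 0.0785).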

How the results depend on the processing

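DESeq2, the fit without the filter on low counts and the Xist term kept the total number of calls within 1.5 times that reported. By direction they did not always: for WT LPS against WT medium the 4 higher calls became 1 without the filter and the 5 lower ones 9 with DESeq2, and the 14 higher calls of the interaction became 9 with the Xist term. With library totals alone the counts of called genes rose to 24 of 50 (WT LPS against WT medium), 33 (labelled KO LPS against labelled KO medium), 26 (labelled KO LPS against WT LPS), 28 (labelled KO medium against WT medium) and 38 (interaction). The share of calls that were higher moved from 44.4% to 4.17%, 57.1% to 90.9%, 68.8% to 96.2%, 50% to 3.57% and 66.7% to 89.5% in that order, and Lamp2 in labelled KO medium against WT medium reversed, from 0.77 to −0.0531. The cause was not tested. Leaving out a library gave 4 to 12 calls for WT LPS against WT medium (4 without WT medium 1 or WT LPS 3, 5 without WT medium 3), 10 to 19, 8 to 17, 7 to 16 and 16 to 24 for the others in the same order. It gave 0 for labelled KO medium against WT LPS and 0 to 1 for labelled KO LPS against WT medium. Among all tested genes, leaving out a library gave 1402 to 3025 calls for WT LPS against WT medium. It gave 2573 to 5009, 1818 to 4038, 2221 to 4697 and 4684 to 6175 for the others in the same order. For labelled KO LPS against WT medium it gave 0 to 244. With a replicate block 8, 13, 14, 11 and 19 of the 50 genes were called, with the higher calls of WT LPS against WT medium falling from 4 to 2. The correlations of deviations of same-numbered libraries ran from −0.63 to 0.567, with 8 of 18 pairs above 0.1, so the numbers were not taken to pair the libraries. Depth limits little here, since no count of the 50 genes was below 84. With 3 libraries a group, the median normal-approximation 95% interval of a fold between 2 groups reached 0.679 to 0.693 to either side on the log2 scale. Intervals from the F test would be wider.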
